A study of Homo sapiens with 21 samples.

Results

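The genes described here are 7 germline and cancer-testis genes, MAGEC1, MAGEC2, MAGEA4, MAGEB2, MORC1, TRIML2 and PRAME, out of 18374 genes that the array measured with at least 1 probe set of a single symbol. All 7 were on the array, with 1 such probe set each. They were picked by name with earlier results of these arrays known, and were selected on their log2 values in each clone against the vector clone V22, so those values are given as a description, with no test. The cells were U-87MG, an established human glioblastoma line, as 3 empty-vector clones named V8, V17 and V22 and 3 clones that stably expressed parkin, named PK7, PK19 and PK25. Parkin is a ubiquitin ligase best known for marking damaged mitochondria. Expression was read on Affymetrix whole-transcript gene arrays, with 12 arrays from vector clones and 9 from clones with parkin, and every value below is the log2 of an RMA intensity unless a fold is named.

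The array file names carry 2 prefixes, treated here as a first and a second array series, which is a reading of the names and not a statement of the labels. V8 and V17 were measured under the first prefix only, the parkin clones under the second only, and V22 under both, with 3 arrays per clone and prefix. Each clone was therefore set against the 3 V22 arrays of its own prefix, and V8 and V17 share 1 set of V22 arrays while PK7, PK19 and PK25 share the other. Every group is a single clone, so what a clone carries by descent and what parkin does cannot be told apart within it. Nothing in the labels says that the arrays of a clone came from separate cultures, so the p-values reflect no more than how repeated arrays of a clone vary. The labels give the same plating and 24 hours of culture for all clones and name no drug treatment.

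Cancer-testis genes are made in germ cells of the testis, are silent in most other adult tissues, and come back in many tumours. In somatic cells their promoters are commonly kept silent by DNA methylation, and loss of that methylation is a known way for them to be switched on, often in some cells of a tumour and not in others. MAGE proteins share a domain that binds RING-type ubiquitin ligases and changes what those ligases act on. MORC1 is an ATPase that helps silence transposons in male germ cells, TRIML2 is a relative of the tripartite-motif ligases, and PRAME is the substrate-binding part of a cullin ligase and a widely used tumour antigen.

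The promoters of the 4 MAGE members are shown first because they share a stretch of letters that the other 3 do not have. The sequences are RefSeq's, from GRCh38.p14, and run 5′ to 3′ on the strand of the gene. The capitals mark CCGGATGTG, a 9-base stretch picked after the promoters had been read, which holds GGAT, a core that ETS-family transcription factors are known to bind. The windows are chrX:141903824-141903880 (plus strand), chrX:142205266-142205322 (minus strand), chrX:151912428-151912484 (plus strand) and chrX:30215474-30215530 (plus strand).
MAGEC1: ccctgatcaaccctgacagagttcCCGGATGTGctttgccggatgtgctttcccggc
MAGEC2: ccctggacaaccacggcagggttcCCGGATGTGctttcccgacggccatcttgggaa
MAGEA4: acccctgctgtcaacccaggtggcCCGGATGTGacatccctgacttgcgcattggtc
MAGEB2: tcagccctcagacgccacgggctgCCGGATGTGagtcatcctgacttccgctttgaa
The stretch began 46 bases before the start of MAGEC1, 8 before MAGEC2, 22 before MAGEA4 and 65 before MAGEB2, and MAGEC1 held a further copy 14 bases downstream of the marked one. Searched on both strands in windows from 250 bases before to 50 after each start, it was found for 119 of 35116 promoters (0.339%) and for 7 of 23 other genes of the MAGEA, MAGEB and MAGEC families. The first count is of windows and the second of genes, and a gene can have several windows. MAGEA4 has several, and each held the stretch. The stretch was not in the windows of MORC1, TRIML2 or PRAME. A match describes letters only and is no evidence of binding.

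The promoters of the 3 members that differed by at least 2-fold from V22 in any clone are given whole, with CG, the dinucleotide that carries methylation, in capitals. They lie at chrX:141903644-141903943 (plus strand), chr3:109118085-109118384 (minus strand) and chr4:188109554-188109853 (minus strand), each 300 bases long.
MAGEC1: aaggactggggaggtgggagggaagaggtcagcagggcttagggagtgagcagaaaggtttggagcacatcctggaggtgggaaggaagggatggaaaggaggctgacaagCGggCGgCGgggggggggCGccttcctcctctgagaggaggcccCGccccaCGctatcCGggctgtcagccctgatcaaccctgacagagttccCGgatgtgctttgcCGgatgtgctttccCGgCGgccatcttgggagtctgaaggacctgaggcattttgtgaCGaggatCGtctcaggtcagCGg
MORC1: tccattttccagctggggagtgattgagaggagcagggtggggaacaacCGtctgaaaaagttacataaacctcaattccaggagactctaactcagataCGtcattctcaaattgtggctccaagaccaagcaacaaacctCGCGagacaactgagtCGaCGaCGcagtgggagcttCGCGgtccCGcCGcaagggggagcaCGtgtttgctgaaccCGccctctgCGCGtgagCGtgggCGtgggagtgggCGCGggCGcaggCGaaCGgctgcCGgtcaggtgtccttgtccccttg
TRIML2: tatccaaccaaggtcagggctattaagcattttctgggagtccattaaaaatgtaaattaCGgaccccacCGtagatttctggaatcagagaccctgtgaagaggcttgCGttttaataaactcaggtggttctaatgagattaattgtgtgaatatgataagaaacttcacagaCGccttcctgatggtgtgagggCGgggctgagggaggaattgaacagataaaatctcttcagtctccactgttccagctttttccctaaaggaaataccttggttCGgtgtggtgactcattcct
CG occurred 14 times in the MAGEC1 window, 23 times in that of MORC1 and 6 times in that of TRIML2, against a median of 14 over all promoters in the table. At the most upstream start of the other members it occurred 10 times for MAGEC2, 10 for MAGEA4, 21 for MAGEB2 and 13 for PRAME. MORC1 had the most and TRIML2 the fewest of the 7. DNA methylation itself was not measured in these samples.

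The members differed from one another in which clones they were high. The differences of at least 2-fold from V22, all upward, were those of MAGEC1 in PK19, MORC1 in V8 and in PK19, and TRIML2 in V8. MAGEC2, MAGEA4, MAGEB2 and PRAME stayed under 2-fold in all 5 clones. In each of PK7, PK19 and PK25, which share their V22 arrays, 6 of the 7 means were above V22. The median log2 difference was 0.32 in PK7, 0.17 in PK19 and 0.16 in PK25. In the vector clones 5 were above V22 in V8 and 2 in V17, with medians of 0.03 and -0.00. The members were selected on these values, so their directions and medians are a description and are not set against other genes.
Across all features, limma called a probe set at a Benjamini-Hochberg adjusted p under 0.05 and at least 2-fold. In V8 against V22, 2 members were called higher, where 0.568% of all probe sets were called higher and 0.412% lower. In V17 none was, with 0% higher and 0% lower over all. In PK7 none was, with 1.44% higher and 0.865% lower. In PK19, 2 were called higher, with 1.62% higher and 1.27% lower, and in PK25 none was, with 0.0742% higher and 0.119% lower. The members were selected on these contrasts, so nothing is read from their counts.

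MAGEC1, also known as CT7 and first described as an antigen of tumours, had the largest difference of any member. It stood at 8.44, 8.87 and 8.96 on the 3 arrays of PK19 (sets 1, 2 and 3), and at 4.04, 4.09 and 4.14 on the V22 arrays of the same prefix (sets 4, 5 and 6). The lowest PK19 array lay 4.29 above the highest of these V22 arrays. The means were 8.76 ± 0.28 (SD, n = 3 arrays) and 4.09 ± 0.05 (SD, n = 3 arrays), a log2 difference of 4.67 or 25.4-fold.
In the other clones MAGEC1 stayed near the V22 level. PK7 read 4.89, 4.21 and 4.76, a log2 difference of 0.53, with every array above V22 but the lowest by only 0.07. PK25 read 4.11, 4.01 and 4.74 and overlapped V22. V8 read 4.38, 3.96 and 4.23, V17 read 4.16, 4.15 and 4.23, and V22 under the first prefix read 4.34, 4.12 and 4.09. In order of mean level PK19 came first, clear of PK7, and from PK7 down to V17 each clone overlapped its neighbour, while V17 lay just above V22 of the second prefix.

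MAGEC2 lies close to MAGEC1 on the X chromosome, and its protein binds the ligase TRIM28 and raises its activity. Its highest values were in another pair of parkin clones. It read 5.17, 4.40 and 4.60 in PK7 and 4.71, 4.18 and 4.65 in PK25, against 3.70, 3.75 and 3.83 in V22 of the same prefix. No PK7 or PK25 array reached down to those of V22. The log2 differences were 0.96 for PK7, whose mean was 4.72 ± 0.40 (SD, n = 3 arrays), and 0.76 for PK25, both short of 2-fold. Leaving out 1 array at a time, the PK7 difference ran from 0.74 to 1.13 and so crossed 2-fold.
PK19, the clone with high MAGEC1, read 3.97, 3.80 and 3.97 for MAGEC2, a log2 difference of 0.16 with arrays that overlapped V22. V8 read 3.31, 3.97 and 3.99, V17 read 3.50, 3.65 and 4.21, and V22 under the first prefix read 4.00, 3.86 and 3.32. These 3 vector groups overlapped throughout. The level order was PK7, PK25, then PK19, and the step from PK25 to PK19 was the only one between neighbours without overlap.

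MAGEA4 encodes a MAGE protein that binds the ligase RAD18. It was also highest in PK7, at 5.02, 5.02 and 5.14 against 4.68, 4.46 and 4.46 in V22 of the same prefix, a log2 difference of 0.52. The PK7 arrays lay above those of V22. PK19 read 5.02, 4.68 and 4.67 and PK25 read 4.59, 4.30 and 5.13, with differences of 0.25 and 0.14, and both overlapped V22. The vector clones ran from 4.21 to 4.80, and in order of mean level every group overlapped its neighbour.
MAGEB2, the member on the short arm of the X chromosome, was the dimmest of the 7. Its 21 values ran from 3.16 to 3.68, and its log2 differences from -0.16 in V17 to 0.17 in PK19. The V8 arrays lay just below those of V22, with a difference of -0.08, and the other clones overlapped V22. In V8, PK7, PK19 and PK25, 4 of these differences changed by more than the spread between arrays when V22 of the other prefix was used.

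MORC1 was high in 1 vector clone and 1 parkin clone, at levels that overlapped. It read 6.05, 6.12 and 5.91 in V8 against 3.86, 3.85 and 3.74 in V22 of the same prefix, and 5.92, 5.83 and 6.29 in PK19 against 3.81, 3.53 and 3.95. All arrays of V8 and PK19 lay well above those of V22. The means were 6.03 ± 0.10 for V8 and 6.01 ± 0.24 for PK19 (SD, n = 3 arrays each), log2 differences of 2.21 (4.63-fold) and 2.24 (4.74-fold).
V17 read 3.61, 3.80 and 3.88 for MORC1, and PK25 read 3.72, 3.87 and 3.67, both overlapping V22. PK7 read 4.03, 4.34 and 3.89, a log2 difference of 0.32 that overlapped V22. In order of level PK7 lay just above V22 of the first prefix, and below it each group overlapped its neighbour.

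TRIML2 was high in V8, at 8.90, 8.86 and 8.65 against 5.50, 5.57 and 5.55 in V22. The lowest V8 array lay 3.08 above the highest V22 array of the same prefix. The mean of 8.81 ± 0.13 against 5.54 ± 0.04 (SD, n = 3 arrays each) gave a log2 difference of 3.27, or 9.62-fold.
Its other values were close together. V17 read 5.67, 5.67 and 5.69, PK7 5.81, 5.71 and 5.80, and PK25 5.68, 5.73 and 5.73, all without overlap with V22 of their prefix but higher by only 0.14, 0.30 and 0.24. PK19 read 5.59, 5.01 and 5.38 and overlapped V22, which read 5.52, 5.55 and 5.36 under the second prefix. PRAME, a tumour antigen, ran from 4.52 to 5.16 over the 21 arrays, with log2 differences of -0.15 in V8 to 0.16 in PK25. PK25 lay just above V22, by 0.03 between the nearest arrays, and the other clones overlapped it.

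**Figure D1:**
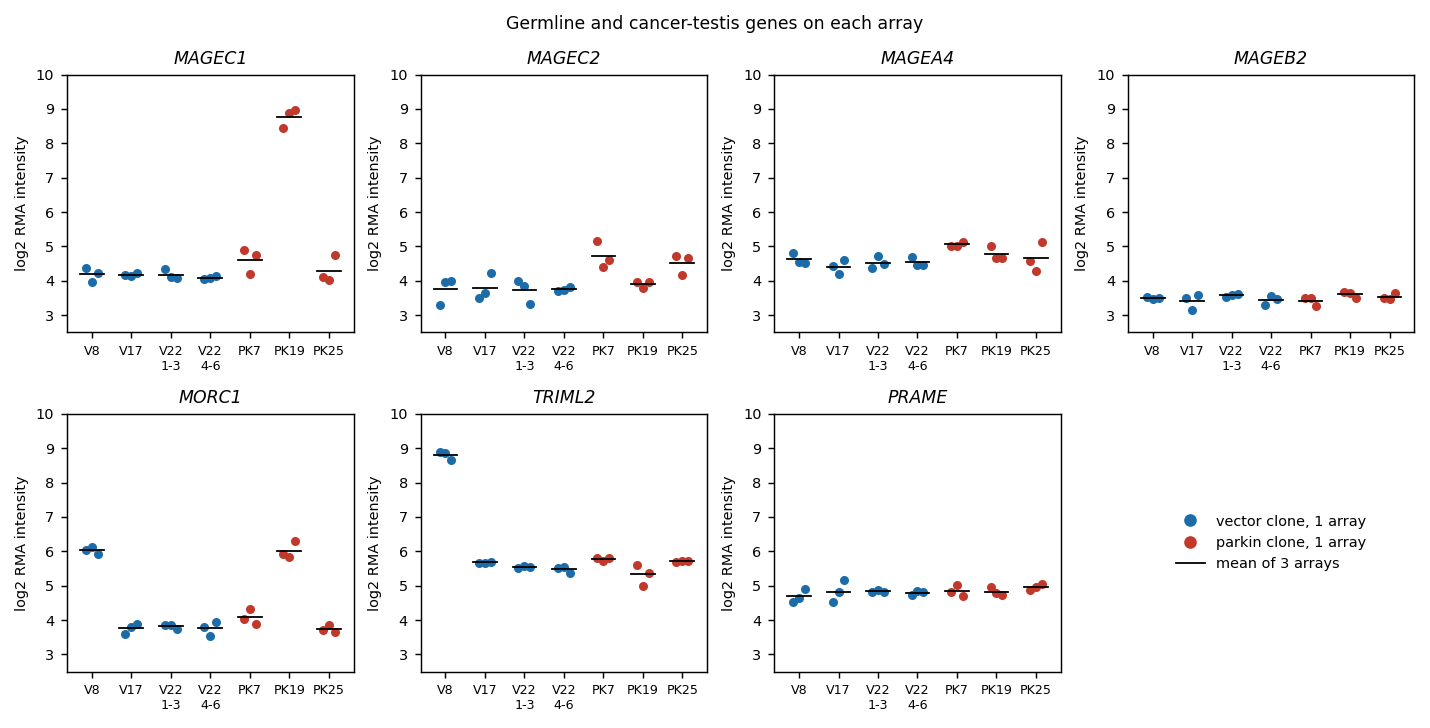
Each point is the log2 RMA intensity of 1 array, by clone, with V22 split by set number (sets 1 to 3 under the first prefix, 4 to 6 under the second), and the line is the mean of 3 arrays. MAGEC1 stands at 8.44 to 8.96 in PK19, MORC1 near 6.03 in V8 and 6.01 in PK19, and TRIML2 at 8.65 to 8.90 in V8, while MAGEB2 and PRAME are level across clones.

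Brightness sets a limit on the low values. Ranked by mean over the 21 arrays, 6 of the 7 members fell between the 11.8th and 29.1st percentile of all probe sets, and TRIML2 at 46.65. Whether intensities at that brightness lie above background was not tested, and a fold against such a level can understate a change. Over the 5390 probe sets between the 10th and 30th percentile, the median difference from V22 was 0.02 in PK7, 0.01 in PK19 and 0.06 in PK25. It was 0.01 in both V8 and V17. The 95th percentiles were 0.38 in PK7, 0.43 in PK19, 0.31 in PK25, 0.36 in V8 and 0.30 in V17. These values describe dim probe sets and are no test of the members, which were selected on their differences.
V22 under the second prefix was also set against V22 under the first, although both served as references in the selection. There 0 of 7 members were called and 0 had an unadjusted p under 0.05 in limma, where 0.00371% of all probe sets were called and 8.75% had such a p. The 7 differences ran from -0.14 to 0.03. With so few calls over all probe sets, the count of 0 tells nothing particular about the members.

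Other cancer-testis genes were examined through a list of 132, of which 91 had a probe set of 1 symbol, 34 were only on probe sets shared by several symbols and 7 were not matched. In PK19, 6 of the 91 rose and none fell in limma's test, where 1.62% of all probe sets rose and 1.27% fell. In V8, PK7 and PK25 a single gene rose, where 0.568%, 1.44% and 0.0742% of all probe sets did. None rose in V17, where 2 (2.20%) had an unadjusted p under 0.05, against 2.71% of all probe sets. That share was also below the one of all probe sets in PK19 (12.1% against 22.6%) and PK7 (6.59% against 25.7%). In V8 it was 6.59% against 19.2%, and in PK25 6.59% against 11.3%. Only 23 of the 91 lay above the dimmest 30% of probe sets, and the part of brightness in these shares was not tested. The median difference over the 91 lay between -0.02 (V8) and 0.03 (PK25), and that over all probe sets between -0.00 and 0.02.
The single gene that rose in V8, PK7 and PK25 was the same one, IL13RA2, a decoy receptor for interleukin 13 that gliomas often carry. It read 11.13, 11.04 and 11.04 in V8 against 5.15, 5.11 and 5.38 in V22, a log2 difference of 5.86 ± 0.12 (SE, limma adjusted p = 5.2e-17). In PK7, PK19 and PK25 the differences came to 5.59, 4.46 and 5.27, with adjusted p of at most 1e-15 in limma, and in V17 the difference was 0.02. These contrasts share V22 arrays within a prefix.

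The remaining 5 that rose in PK19 were low in every other clone. SAGE1, an antigen first found in sarcoma, read 6.50, 6.22 and 6.61 in PK19 against 2.89, 3.10 and 3.00 in V22, a log2 difference of 3.44 ± 0.14 (SE, limma adjusted p = 6.3e-13). MAGEA1, the founding gene of the MAGE family, read 8.28, 8.18 and 8.45 against 5.59, 5.53 and 5.44, a difference of 2.78 ± 0.12 (SE, limma adjusted p = 2.3e-12). SSX1, known from the fusion gene of synovial sarcoma, read 5.59, 6.21 and 6.01 against 3.37, 3.04 and 3.46, a difference of 2.65 ± 0.14 (SE, limma adjusted p = 5.4e-11).
In each case the 3 PK19 arrays were far above every V22 array. LIPI, a lipase, and CTNNA2, a catenin of neurons, were named after their values had been seen, because they complete the 6. LIPI read 5.41, 5.53 and 5.48 against 2.85, 2.88 and 2.98, a difference of 2.57 ± 0.11 (SE, limma adjusted p = 3.3e-12). CTNNA2 read 5.58, 5.43 and 5.85 against 3.96, 4.17 and 4.16, a difference of 1.52 ± 0.11 (SE, limma adjusted p = 4.3e-09). In V17, where no gene was called, the 2 largest differences were those of MAGEA1 at -0.37 and TEX15, a gene of male meiosis, at -0.33, each with an adjusted p of 1.0 in limma.

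**Figure D2:**
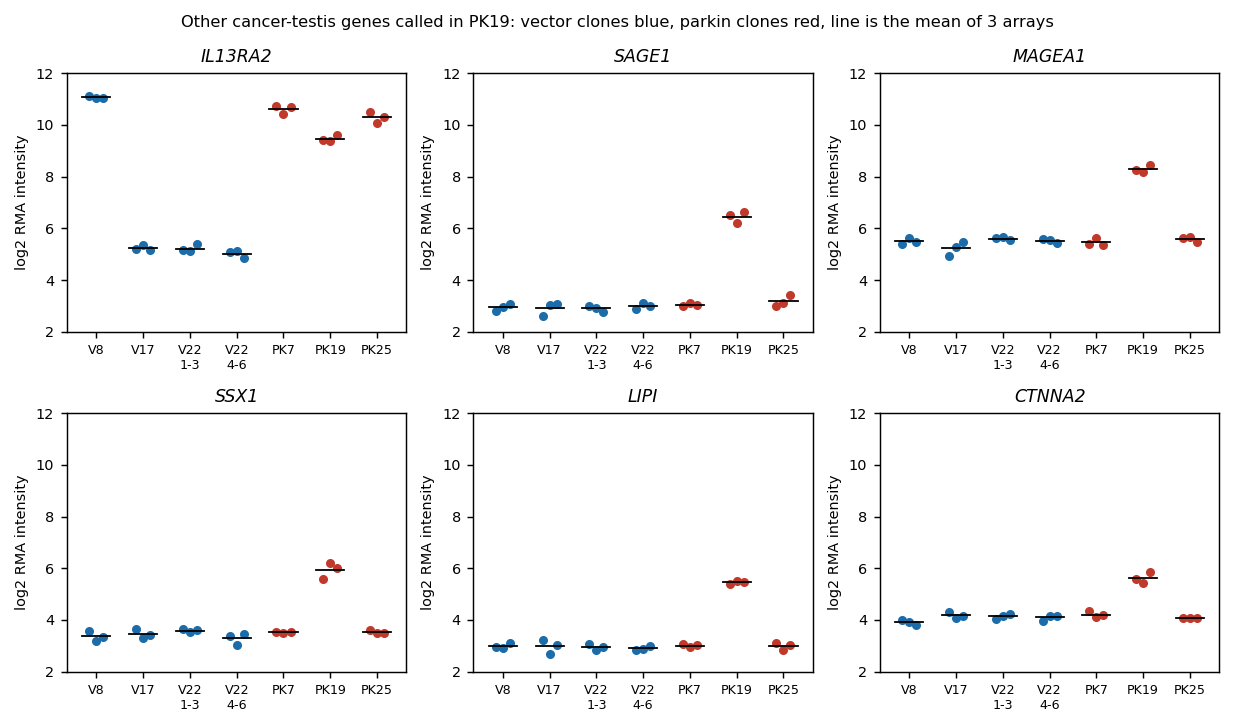
Each point is the log2 RMA intensity of 1 array for the 6 other cancer-testis genes called in PK19, with vector clones in blue, parkin clones in red and the mean of 3 arrays as a line. IL13RA2 is high in V8, PK7, PK19 and PK25, whereas SAGE1, MAGEA1, SSX1, LIPI and CTNNA2 are high in PK19 only among the groups plotted, for example SAGE1 at 6.22 to 6.61.

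Whether PK19 differed from the other parkin clones was tested directly, in contrasts added after the data had been seen. Against PK7, 5 of the 91 genes were higher in PK19, where 1.07% of all probe sets were. IL13RA2 was lower by a log2 difference of -1.14 (limma adjusted p = 1.3e-06). Of 26947 probe sets, 659 were called in either direction, 287 of them higher in PK19. Against PK25, the same 5 were higher, where 1.71% of all probe sets were. IL13RA2 was also lower there, by -0.82 (limma adjusted p = 6.5e-05), which is under 2-fold. The differences against PK7 and PK25 were 3.40 and 3.27 for SAGE1, 2.83 and 2.71 for MAGEA1, 2.42 and 2.40 for SSX1, 2.46 and 2.47 for LIPI, and 1.41 and 1.54 for CTNNA2. All of these passed in limma, with adjusted p of at most 1.6e-08. The 5 genes had already been called in PK19 against V22 on the same PK19 arrays, so these contrasts are no independent support.
Probe sets shared by several symbols are counted here without naming a gene, since they cannot tell near-identical copies apart. Of 59 that held a gene of the list, 6 rose in PK19, the largest by 6.23, 1 rose in PK25 by 1.83, and none rose in V8, V17 or PK7. Of all probe sets, 1.62% rose in PK19, 0.0742% in PK25, 0.568% in V8 and 1.44% in PK7.

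**Figure D3:**
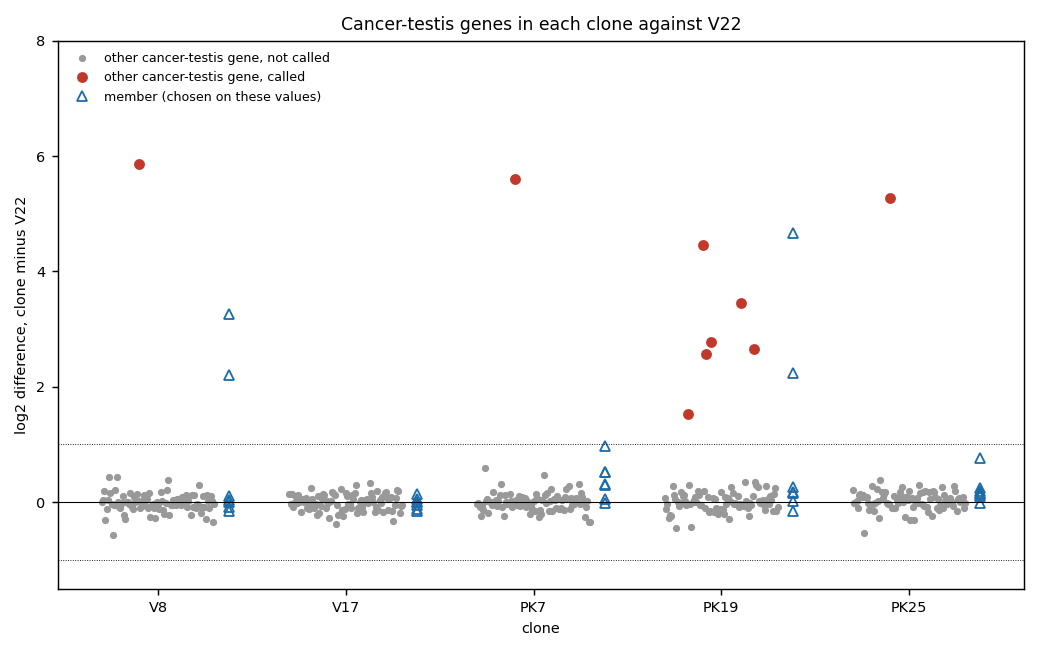
Each grey or red point is the log2 difference of 1 of the 91 other cancer-testis genes from V22 of the same prefix, red where called, and the open triangles are the 7 members. Dotted lines mark 2-fold. PK19 has 6 red points up to 4.46 while V8, PK7 and PK25 have 1 each, IL13RA2 at 5.86, 5.59 and 5.27, and V17 none.

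Many cancer-testis genes lie on the X chromosome, as do 4 of the members. On X, 4 of 46 list genes rose in PK19 (8.70%), and on autosomes 2 of 45 did (4.44%). Over all genes with a symbol, 17 of 693 on X (2.45%) and 324 of 17629 on autosomes (1.84%) rose in that clone, and 12 of the 693 on X fell. The median difference of all X genes in PK19 was -0.00.

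The other lists hold 52 germline and meiosis genes, 10 of them also in the cancer-testis list, 38 genes of DNA methylation and silencing, 12 partner ligases of MAGE proteins and 17 paralogs of the members. Calls past both limits came to 7 over these lists and the 5 clones with TRIM28 counted once. Over all probe sets, 1.44% were called higher and 0.865% lower in PK7, 1.62% and 1.27% in PK19, and 0.568% and 0.412% in V8. Whether the lists differed from these shares was not tested. DMC1, the recombinase of meiosis, rose in V8, with 5.38, 5.53 and 5.76 against 4.21, 4.08 and 4.27 (log2 difference 1.38 ± 0.11 SE, limma adjusted p = 1.9e-07). In PK19 it stood at -0.58 from V22, under the 2-fold limit. PRDM1, a repressor that helps specify germ cells but also acts in other lineages, rose in PK19 by 1.56 and in PK7 by 1.23 (limma adjusted p = 1.5e-06 and 3.6e-05). The remaining germline genes passed in no clone.
Among the silencing genes TRIM28 alone passed, in PK7. This co-repressor and ligase, the partner of MAGEC2, read 10.29, 10.24 and 10.30 against 11.33, 11.17 and 11.34, a log2 difference of -1.004 ± 0.11 (SE, limma adjusted p = 2e-06), and it is also in the list of partner ligases. In V8 and PK19 the TRIM28 differences were -0.58 and -0.48, under 2-fold. Smaller differences were common among the silencing genes. In limma, 20 of 38 (52.6%) in PK7, 19 of 38 in PK19 and 13 of 38 in V8 had an unadjusted p under 0.05. The shares of all probe sets were 25.7%, 22.6% and 19.2%. High shares were not particular to the silencing genes. For the partner ligases they were 58.3% in PK7 and 33.3% in PK19, and for the paralogs 47.1% and 35.3%. For the germline and meiosis genes the share was 5.77% in both clones. The lists were not matched in brightness. Of the named genes, TRIM28 lay at the 97.5th percentile of all probe sets and DMC1 at the 21.5th. The part of brightness in these shares was not tested. Over the 38 silencing genes the median difference was lowest in PK7 (-0.16) and was -0.01 in V8, with PK19 at -0.08 and PK25 at -0.06.
Genes that write, guide and erase DNA methylation were named for their role. DNMT1, which copies methylation after replication, differed from V22 by -0.52 in PK7 and -0.36 in PK19 (limma adjusted p = 0.00046 and 0.011), and by -0.05 in PK25 and 0.04 in V8. UHRF1, which brings DNMT1 to DNA, differed by -0.71 in PK7 and -0.52 in PK19 (limma adjusted p = 0.0025 and 0.025). In V8 and PK25, UHRF1 differed by -0.26 and -0.21 (limma adjusted p = 0.4 and 0.66). Of the enzymes that set new methylation, DNMT3A differed by -0.28 in PK7, -0.42 in PK19 (limma adjusted p = 0.0064) and -0.28 in V8. DNMT3B differed by -0.55 in PK7 (limma adjusted p = 0.0094), -0.20 in PK19 and 0.37 in V8. In PK25, DNMT3A differed by -0.07 and DNMT3B by -0.24.
The TET enzymes start the removal of methylation. TET1 differed by -0.70 in PK19 (limma adjusted p = 0.0057) and -0.25 in PK7, TET2 by -0.66 in PK7 (limma adjusted p = 0.0062) and -0.44 in PK19, and TET3 by -0.08 in PK7 and 0.04 in PK19. In V8 and PK25, TET1 differed by -0.24 and -0.38, TET2 by -0.28 and -0.24, and TET3 by -0.06 and -0.07. None of these differences reached 2-fold.
Of the paralogs, NDN, an imprinted MAGE-family gene, rose in PK7 by 1.72 and in PK19 by 1.55 (limma adjusted p = 4.4e-06 and 1.1e-05), and MAGED1, a MAGE gene active in most tissues, rose in PK7 by 1.07 (limma adjusted p = 1.5e-05). Without the set 2 array of PK7, PRDM1 (0.98), TRIM28 (-0.98) and MAGED1 (0.93) no longer reached 2-fold in PK7.

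Averaged per array, 7 germ cell markers ran from 4.47 to 4.81 and none was called in any clone, with DDX4 at 3.14 to 3.93 and SYCP3 at 2.39 to 3.21. The averages ran from 3.97 to 4.50 for blood markers, from 4.85 to 5.42 for epithelial ones and from 4.83 to 5.36 for endothelial ones, with none called. The 9 glioma-line markers averaged 8.05 to 8.69, led by VIM at 12.46 to 12.96, while the glial markers GFAP (6.02 to 7.03) and OLIG2 (5.32 to 5.97) lay near the array median. Of the 9, CHI3L1 rose by 3.83 in PK7 and SOX2 fell by 1.09 in PK19. SOX2 differed by -0.97 in both V8 and PK7, just under 2-fold (limma adjusted p = 0.0062 and 0.0029). CHI3L1 also varied within clones. It read 7.9, 10.7 and 7.97 in PK25, and V22 of the second prefix differed from V22 of the first by -1.80. The clones were not all alike in these markers, whose part in the levels of the members was not tested.

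Neighbouring genes show whether a member's change was shared along its chromosome. Taking the nearest 5 measured genes on each side in RefSeq's gene order, with 1 fewer at the end of chromosome 4, 59 different neighbours were set against V22. Of these 4 were called in PK19, 4 in PK7, 2 in V8 and 0 in V17 and PK25, 10 calls in all. Over all probe sets, 1.62% were called higher and 1.27% lower in PK19, 1.44% and 0.865% in PK7, and 0.568% and 0.412% in V8. Whether the neighbours exceeded these shares was not tested. The neighbours of MAGEC1 and MAGEC2 include SPANX genes, MAGEC3 and LDOC1, and of these LDOC1, a gene derived from a retrotransposon, rose in PK19. It read 8.51, 8.92 and 8.21 against 5.39, 5.39 and 5.39 in V22, which hardly varied between arrays, a log2 difference of 3.16 ± 0.15 (SE, limma adjusted p = 1.3e-11).
The genes between LDOC1 and MAGEC1 in that order, and those beyond MAGEC1, were not called. Beside MORC1, the germline genes DPPA2 and DPPA4 were not called in any clone. LOC151760, some places further on, fell by 2.99 in PK19 and fell by 1.78 in PK7 (limma adjusted p = 2.5e-16 and 5e-12). MORC1 itself was high in PK19 but overlapped V22 in PK7. In V8, where MORC1 was also high, none of its neighbours was called. NECTIN3, an adhesion gene, rose by 1.10 in PK7. Beside TRIML2, its relative TRIML1 and the stem cell gene ZFP42 were not called, and FAT1, an atypical cadherin, fell by 1.13 in PK19. No neighbour of TRIML2 was called in V8.
Near MAGEA4, the receptor gene GABRA3 fell by 3.08 in V8, fell by 2.19 in PK7 and fell by 1.77 in PK19, and GABRQ fell by 2.08 in PK7. Near MAGEB2, the synaptic gene IL1RAPL1 rose by 1.45 in V8. None of the neighbours of PRAME was called.

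**Figure D4:**
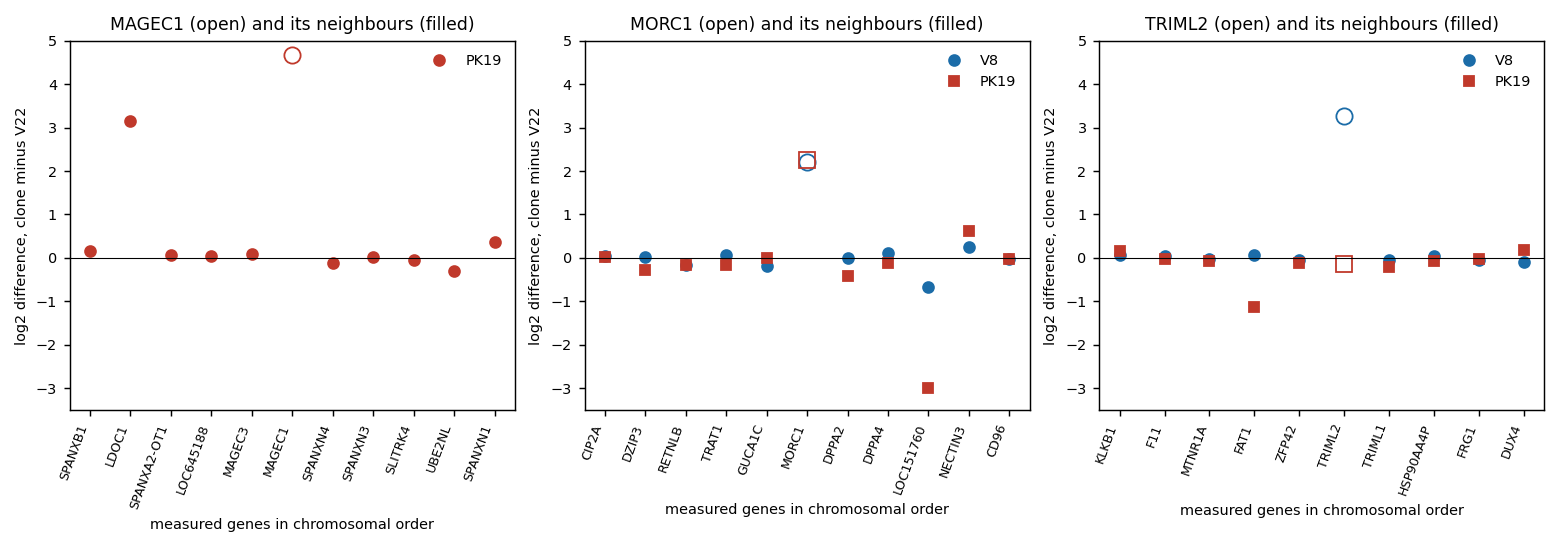
Each point is the log2 difference from V22 of the same prefix, for MAGEC1, MORC1 and TRIML2 (open) and their measured neighbours (filled) in chromosomal order, with equal spacing in place of distance. LDOC1 at 3.16 stands with MAGEC1 at 4.67 in PK19, LOC151760 lies at -2.99 in PK19 beside MORC1 at 2.24, and in V8 TRIML2 at 3.27 has no called neighbour.

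The genes most like each member were found by Pearson's r over the 21 arrays, on values minus the V22 mean of the same prefix. These are descriptions, since the arrays of a clone share their source. For MAGEC1 they were LIPI (r = 0.987), the transcriptional repressor E2F7 (r = 0.986) and SAGE1 (r = 0.983), and E2F7 stood 5.13 above V22 in PK19. For MORC1 they were PDPN, a membrane glycoprotein (r = 0.980), TPD52 (r = 0.966) and CPEB4 (r = 0.944). PDPN stood 2.79 above V22 in V8 and 3.14 in PK19, and TPD52 2.20 and 2.69.
For TRIML2 they were FAM180A (r = 0.948), IL1RAPL1 (r = 0.938) and ENKUR (r = 0.935), with FAM180A 2.82 above V22 in V8. MAGEC2 was most like MTMR1 (r = 0.816), another X-linked gene, which stood 1.83 above V22 in PK7 and 1.06 in PK25 but only 0.13 in PK19. MAGEA4 was most like MACROD1 (r = 0.919). The nearest matches of MAGEB2 and PRAME, both level genes, were OGDHL (r = 0.850) and TMEM145 (r = 0.843).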

How the data were processed

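The values are RMA intensity on a linear scale, deposited by the authors in 1 table of 26947 probe sets and 21 arrays. RMA is named per the submitters' processing notes, with no version. Joint or separate normalization of the arrays is not given in the sources used here. The values were turned into log2 values. There were 0 missing values, and no 2 columns were identical. Array medians ran from 6.21 to 6.37, and arrays have no counted depth, so their number limits the precision.

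Symbols came from the array's annotation table: 19305 probe sets had 1 symbol (18374 genes), 1750 had several and 5892 had none or were not listed. A gene was represented by its probe set with the highest mean. Chromosomes, gene order and promoters came from RefSeq (GRCh38.p14).

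limma 3.58.1 (lmFit, eBayes) in R 4.3.3 fitted all probe sets and 21 arrays in 7 groups (14 residual degrees of freedom), with p-values adjusted by Benjamini-Hochberg over all probe sets and calls at adjusted p under 0.05 and at least 2-fold. The code was tested on simulated data. Members and lists were chosen with earlier results of these data known. All members were named. From the cancer-testis list, each clone named at most 4 called genes per direction, by size of the difference, or 2 where none passed, from other lists up to 4 called, and for each member the 3 genes most like it. The contrasts of PK19 with PK7 and PK25 and the 9-base promoter stretch were chosen after the data were seen. Alternatives covered normalization, centring, dim probe sets, probe sets per gene, arrays in the fit, variance moderation, fold, set number as a block, V22 arrays used and leaving out each array.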

Additional observations from a re-analysis of the deposited data

Results flagged for a closer look

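The clones' changes against V22 were compared in contrasts added after the data had been seen (limma, adjusted p under 0.05, at least 2-fold). Of 91 other cancer-testis genes, 5 changed more in PK19 than in both other parkin clones. Over all probe sets, 1.07% were higher in PK19 than in PK7, and 1.71% than in PK25. The 5 had already been called in PK19 against V22 on the same PK19 arrays, so these contrasts are no independent support. The log2 differences between PK19 and PK25, then PK7, were 3.27 and 3.40 for SAGE1, 2.71 and 2.83 for MAGEA1, 2.40 and 2.42 for SSX1, 2.47 and 2.46 for LIPI, and 1.54 and 1.41 for CTNNA2. IL13RA2 changed less in PK19 than in PK7, by -1.14, and less than in PK25 by -0.82, which is under 2-fold. The contrasts share the same V22 arrays, which cancel in the difference. Each clone is a single clone with 3 arrays.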

How the results depend on the processing

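The 4 member differences past 2-fold kept their direction and stayed past 2-fold under the alternatives run: MAGEC1 in PK19 ran from 4.56 to 4.83, MORC1 from 2.17 to 2.27 in V8 and 2.11 to 2.34 in PK19, and TRIML2 in V8 from 3.21 to 3.34. Leaving out the dimmest 30% of probe sets gave no value for 6 members, since only TRIML2 was kept. That filter kept 23 of 91 other cancer-testis genes, and the called ones fell from 6 to 2 in PK19 against V22 (IL13RA2 and MAGEA1 were kept), to 2 against PK7 and to 1 against PK25, and calls in the silencing, germline, ligase and paralog lists went from 7 to 4, because fewer genes were tested. With no fold threshold the calls were 3 in V8, 2 in PK7, 8 for PK19 against PK25, 23 for the neighbours and 54 for the 4 other lists. Over all alternatives, other cancer-testis calls in PK19 against V22 ran from 2 to 7. Leaving out 1 array at a time, calls in those 4 lists ran from 4 to 7, with 4 without PK7 set 2, and the other counts kept their values. With the V22 arrays of the other prefix, the small differences of MAGEB2 in V8 (0.06) and PK25 (-0.04) changed sign.

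Set numbers were not used to pair the samples in the main fit. Same-set arrays of different vector clones correlated in their deviations at 0.0591 to 0.216 (different sets -0.141 to 0.0533). Those of parkin clones correlated at -0.0917 to 0.381, with a median of 0.151 (different sets -0.365 to 0.323, median -0.123). When set number entered the fit as a replicate block, other cancer-testis calls stayed at 1 in V8 and 0 in V17, and calls over all probe sets were 257 in V8, from 264, and 0 in V17. In the vector clones each same-set correlation was above each different-set one, a hint from the data and not from the design. In a block fit of the parkin clones, added after the data were seen, those calls stayed at 6 for PK19 against PK7 and 5 against PK25, and calls over all probe sets were 661, from 659, and 684, from 703. The parkin clones could not be blocked with V22, whose set numbers under that prefix differ.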
